A study of Mus musculus with 24 samples.

Results

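The insulin-like growth factor family was followed in brain RNA of Ts1Cje mice and of 2N mice. The 10 genes named for the family are the ligands Igf1 and Igf2, the receptors Igf1r and Igf2r, and the binding proteins Igfbp2 to Igfbp7. Members were chosen by gene symbol: each probe set whose platform annotation gives one of these symbols and no other counts as a member. This gave 18 probe sets of 24833. The array design labelled MGU74A (array A) holds 14 of them and MGU74B (array B) 4, and they name 9 of the 10 genes, out of 13674 genes named on either array. Igfbp5 has no probe set of its own. The single probe set annotated to it, 100566_at, also names Tmem119, so it is described apart and is not counted.

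For each array design there were 6 samples of each genotype. 2N mice have the normal chromosome complement. Ts1Cje mice model Down syndrome: a distal stretch of mouse chromosome 16 is present in an additional copy, joined to distal chromosome 12. The labels give the tissue as brain and give no region, age, sex or strain background, and they do not say whether samples came from separate animals, so the spread between samples may be partly technical. 0 of the 10 family genes lie on chromosome 16 in the reference annotation, so none belongs to the extra segment.

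Insulin-like growth factors are secreted peptides related to insulin. They act through IGF1R, a receptor tyrosine kinase that drives growth and survival signalling through PI3 kinase, Akt and the MAP kinases, while IGF2R binds IGF2, carries it to lysosomes and also sorts mannose 6-phosphate tagged enzymes. Binding proteins hold the ligands in the extracellular space and either shield them from the receptor or deliver them to it. In the brain, Igf2 is known as a product mainly of the choroid plexus and meninges, and Igf1 of neurons, microglia and vessels. In mice Igf2 is expressed from the paternal and Igf2r from the maternal allele in most tissues.

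The labels were first checked against the extra segment. Son, an RNA splicing cofactor gene of the segment, had an array A intensity of 127 ± 8.59 in 2N against 242 ± 20.6 in Ts1Cje (SD, n = 6) and was higher in Ts1Cje by 0.92 on the log2 scale (limma adjusted p = 1.03e-05). It had the largest difference of the genes checked. On array A Ttc3 (0.52), Hmgn1 (0.38), Dyrk1a (0.57) and Itsn1 (0.59) also had a limma adjusted p under 0.05. Gart (0.55, limma adjusted p = 0.182), Tmem50b (0.53, 0.117) and Sod1 (0.39, 0.99) did not. App was looked at as well and differed by 0.04 (limma adjusted p = 0.993). Whether App lies in the extra segment was not examined, so its value is not counted as a segment gene falling short. Differences of 0.53 to 0.55 could thus miss that threshold. Neuronal markers were present on array A, 13 of 14 listed genes having a tested probe set, with a mean log2 level of 7.57 to 7.71 in 2N and 7.55 to 7.73 in Ts1Cje. Along the first principal component of both tables, samples numbered 1 and 2 separated from those numbered 3 to 6 in each genotype, a split that is found in the data and is not given by the labels. With 6 arrays a group, precision is limited by that number.

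No member passed the threshold between genotypes, an adjusted p under 0.05 over all probe sets tested in a table. Intensities are on a linear scale after quantile normalisation, and differences are Ts1Cje minus 2N on the log2 scale. Of the 14 members on array A, 12 were bright enough to be tested, and 3 of the 4 on array B. By limma 0 of the 12 were called on array A, where 0.0966% of all tested probe sets were called, and 0 of the 3 on array B, where 0.0645% were. At an unadjusted p under 0.05 there were 2 members on array A, beside 3.63% of all probe sets, and 0 on array B, beside 4.24%. The 2 are a probe set of Igfbp3 and the probe set of Igfbp7, both higher in Ts1Cje. The smallest adjusted p among members was 0.409 for array A and 0.996 for array B. The genotypes overlapped in all 15 tested members, while 0.301% of the tested probe sets of array A and 0.247% of those of array B did not overlap. The median difference was 0.05 over the 12 members on array A against -0.00424 over all tested probe sets, and -0.03 over the 3 on array B against -0.00346. The family was proposed with results of these arrays in view, so its values are a description and not independent evidence.

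**Figure D1:**
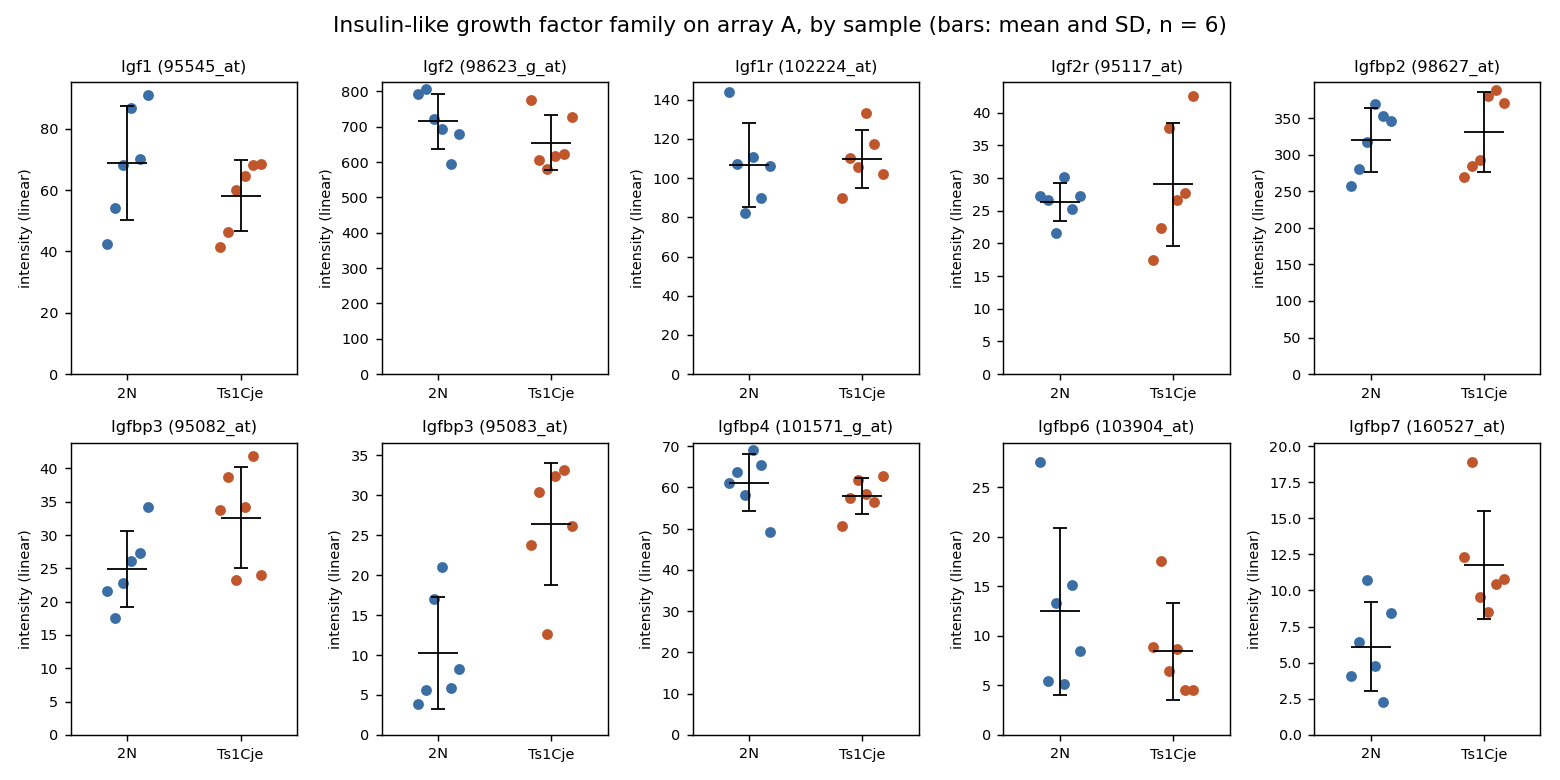
Intensity (linear scale, quantile normalised) in each 2N and Ts1Cje sample on array A for the brightest probe set of each family gene and for the other Igfbp3 probe set. Points are samples in the order of their numbers and bars are the mean and SD over 6 samples. The genotypes overlap in every panel, and the 2N and Ts1Cje means lie farthest apart, relative to their size, for Igfbp3 (95083_at, 10.3 against 26.4) and Igfbp7 (6.11 against 11.8).

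Of the ligands, Igf2 had a bright probe set, 98623_g_at, at the 98.5th percentile of brightness on array A. Its lowest, median and highest intensities were 595, 707 and 807 in 2N and 579, 620 and 776 in Ts1Cje. The ranges overlapped almost fully, and 2 of the 6 Ts1Cje samples lay above the 2N median. The means were 715 ± 78.6 and 655 ± 77.9 (SD, n = 6), a difference of -0.13 (SE 0.086, 95% interval -0.31 to 0.05), or 0.916-fold. Among replicates 3 to 6 the difference was -0.08 and among replicates 1 and 2 it was -0.22. The other Igf2 probe set, 98622_at, was at the 5.0th percentile, with 8 of its 12 values at or below the floor of 1.47, and was not tested.

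Igf1 was measured by 2 probe sets on each array. On array A, 95545_at, at the 77.4th percentile, had a lowest, median and highest intensity of 42.6, 69.3 and 91.2 in 2N and 41.4, 62.4 and 68.6 in Ts1Cje. 0 of 6 Ts1Cje samples lay above the 2N median. The difference was -0.22 (SE 0.182, 95% interval -0.60 to 0.16). On array B, 107959_at, at the 81.0th percentile, had 21.9, 31.3 and 50.3 in 2N and 31.9, 37.2 and 47.4 in Ts1Cje. There 6 of 6 Ts1Cje samples lay above the 2N median and 4 of the 2N samples below the lowest Ts1Cje sample, yet the highest sample of all was a 2N one. The difference was 0.31 (SE 0.173, interval -0.05 to 0.68). The probe sets of this one gene thus had differences of opposite sign on the 2 arrays, each with an interval that holds 0. The arrays were normalised apart, and the labels do not tie a sample of one array design to a sample of the other. The dimmer Igf1 probe set of array A, 95546_g_at, ran from 1.52 to 13.1 over both genotypes and differed by 0.22 (SE 0.576), and 115861_at on array B, at the 24.8th percentile, was not tested.

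The receptor gene Igf1r had 3 tested probe sets, all with differences near 0. On array A, 102224_at, at the 86.6th percentile, had a lowest, median and highest intensity of 82.1, 107 and 144 in 2N and 89.7, 108 and 133 in Ts1Cje. The means of 107 ± 21.4 and 110 ± 14.7 (SD, n = 6) differed by 0.05 (SE 0.127, interval -0.21 to 0.32). The value was 0.24 among replicates 3 to 6 and -0.32 among replicates 1 and 2, and just below 0 without normalisation between arrays (-0.00476). On array B, 106956_at, at the 90.9th percentile, had 53.3, 64.8 and 84.4 in 2N and 49.99, 63.7 and 85.4 in Ts1Cje, a difference of -0.03 (SE 0.133), and 116112_at, at the 67.1st percentile, differed by -0.04 (SE 0.194). Without normalisation between arrays these array B values were 0.01 and 0.03. The 95% intervals of the 3 probe sets hold 0 and end at 0.32, 0.25 and 0.37.

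Igf2r, which clears IGF2 from the cell surface, was measured by 95117_at at the 60.3rd percentile of array A. Its lowest, median and highest intensities were 21.5, 26.9 and 30.2 in 2N and 17.4, 27.1 and 42.6 in Ts1Cje. The Ts1Cje samples lay on both sides of the 2N range, with 2 of them above its top. The coefficient of variation was 10.8% in 2N and 32.5% in Ts1Cje. The medians nearly coincided, and the difference was 0.08 (SE 0.198, interval -0.33 to 0.50). It was 0.35 among replicates 3 to 6 and -0.45 among replicates 1 and 2.

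Among the binding proteins, Igfbp2, which is secreted in the developing brain and into cerebrospinal fluid, was measured by 98627_at at the 96.3rd percentile. Its lowest, median and highest intensities were 257, 331.6 and 370 in 2N and 270, 331.7 and 389 in Ts1Cje. The genotypes covered nearly the same range. The means of 320 ± 44.1 and 331 ± 54.2 (SD, n = 6) differed by 0.04 (SE 0.111, interval -0.19 to 0.28), and by -0.03 without normalisation between arrays and -0.00257 with median scaling.

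Igfbp3, the main carrier of the ligands in blood, had 2 tested probe sets on array A, and both differences were above 0. For 95083_at, at the 51.2nd percentile, the 2N intensities were 3.81, 5.62, 17.0, 21.1, 5.86 and 8.3 in replicates 1 to 6, and the Ts1Cje intensities were 23.7, 30.4, 12.7, 32.4, 33.1 and 26.2. Of the Ts1Cje samples 5 of 6 lay above the highest 2N sample, and replicate 3, at 12.7, lay inside the 2N range. The means were 10.3 ± 7.05 and 26.4 ± 7.66 (SD, n = 6). The difference was 1.57 (SE 0.382, interval 0.77 to 2.38), or 2.97-fold on the floored log2 scale, with a limma adjusted p of 0.409. It was 1.09 among replicates 3 to 6 and 2.54 among replicates 1 and 2. With 16 or 64 added to each value in place of the floor it was 0.71 or 0.28, since an added constant shrinks the fold of a dim probe set.

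The other Igfbp3 probe set, 95082_at, at the 61.1st percentile, had a smaller difference. Its lowest, median and highest intensities were 17.6, 24.5 and 34.2 in 2N and 23.3, 34.0 and 41.9 in Ts1Cje. Only 2 of the 6 Ts1Cje samples lay above the highest 2N sample. The difference was 0.38 (SE 0.193, interval -0.02 to 0.79), which was 0.13 among replicates 3 to 6 and 0.90 among replicates 1 and 2. The interval of 95082_at ends at 0.79 and that of 95083_at begins at 0.77, so the probe sets barely share a range of values for this gene. The files do not say which part of the transcript each of them reads.

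Igfbp7, a binding protein with low affinity for the ligands that is known from vessel walls, was dim. Its probe set 160527_at stood at the 36.4th percentile, with 2N intensities of 4.05, 6.4, 10.7, 4.75, 2.26 and 8.43 and Ts1Cje intensities of 12.3, 18.9, 9.58, 8.53, 10.4 and 10.8 in replicates 1 to 6. Of the 2N samples 5 of 6 lay below the lowest Ts1Cje sample, and 2N replicate 3 lay inside the Ts1Cje range. The difference was 1.07 (SE 0.382, interval 0.26 to 1.87), or 2.10-fold, with a limma adjusted p of 0.99. It was 0.81 among replicates 3 to 6 and 1.58 among replicates 1 and 2, and 0.33 or 0.11 with 16 or 64 added. Igfbp3 95083_at and Igfbp7 were the 2 members of 12 more than 2-fold higher in Ts1Cje on array A, where 0.633% of all tested probe sets were. On array B 0 of 3 members were, beside 0.569%.

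Markers of cells that could carry these genes were set beside Igfbp3 and Igfbp7. Endothelial and mural markers, 17 of 19 listed genes tested on array A, had a mean log2 level of 3.94 to 4.47 in 2N and 4.07 to 4.41 in Ts1Cje, and 0 were called. The brightest of that list, the tight junction gene Cldn5, differed by 0.05 (SE 0.0884). Acta2, the smooth muscle actin gene, singled out after its value was known, was dim, at 5.20 in 2N and 9.58 in Ts1Cje, with a difference of 1.31 (SE 0.536). Flt1, singled out in the same way, went the other way, by -1.075 (SE 0.383) on array B and -0.09 (SE 0.311) on array A. The 6 genes of this list tested on array B had a mean difference of 0.03. Meningeal and fibroblast markers, 17 of 18 tested, ran from 4.81 to 5.28 in 2N and from 4.65 to 5.14 in Ts1Cje. The mean difference of these lists on array A was 0.05 and -0.15. Choroid plexus markers, of which 4 of 14 were tested on array A, ran from 4.51 to 5.48 in 2N and from 5.04 to 5.30 in Ts1Cje, with the defining markers Kl and Slc4a5 below the brightness filter. Their mean was higher in Ts1Cje by 0.28 on array A and by 0.21 over the 2 genes tested on array B, and 0 were called. On array A Ttr, the transthyretin gene and the brightest of them, differed by 0.06 (SE 0.242) and Calml4 by 0.08 (SE 0.225). The array A mean came mostly from Aqp1 (0.64, SE 0.370), which was dim, and Folr1 (0.36, SE 0.187). Clic6 on array B, singled out after its value was known, differed by 0.42 (interval 0.10 to 0.75, limma adjusted p = 0.996). Sostdc1, the other gene tested there, differed by -4.7e-05 (SE 0.168), so the array B mean rests on Clic6 alone. Whether marker genes, Clic6 among them, lie in the extra segment was not examined. The array B mean is therefore not read as a difference in choroid plexus RNA. Pituitary markers, 6 of 8 tested and dim, ran from 2.87 to 3.68 in 2N and from 3.01 to 3.97 in Ts1Cje. The mean difference was 0.47 with 0 called. Prl (3.61 in 2N and 7.63 in Ts1Cje) and Fshb (4.79 and 5.48) reached the mean intensity of 5.11 needed for testing only through their Ts1Cje samples. The filter thus favoured a higher pituitary mean in Ts1Cje. Erythroid markers, 4 of 9 tested, went the other way, from 5.56 to 6.39 in 2N and from 4.52 to 6.05 in Ts1Cje, a mean difference of -0.43 with 0 called. The part of any of these cells in the Igfbp3 and Igfbp7 values was not tested, and in whole tissue fewer cells of a type and less RNA per cell cannot be told apart.

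The last members were 3 probe sets of Igfbp4 and 1 of Igfbp6. Igfbp4 encodes an inhibitory binding protein that the protease PAPP-A cleaves. Its brightest probe set, 101571_g_at at the 76.1st percentile, had a lowest, median and highest intensity of 49.1, 62.5 and 69.1 in 2N and 50.6, 57.9 and 62.8 in Ts1Cje, a difference of -0.07 (SE 0.108, interval -0.30 to 0.15). The second, 94222_at, differed by -0.10 (SE 0.163), and the third, 101570_at at the 17.5th percentile, was not tested. Igfbp6 encodes a binding protein that prefers IGF2. Its probe set 103904_at, at the 39.5th percentile, had 5.16, 10.9 and 27.6 in 2N and 4.50, 7.58 and 17.5 in Ts1Cje. The samples spread widely in both genotypes, and the difference of -0.48 (SE 0.442) had an interval of -1.41 to 0.45 that holds more than a halving as well as a rise.

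The probe set shared by Tmem119 and Igfbp5, 100566_at, stood at the 95.8th percentile and was steady. Its lowest, median and highest intensities were 266.9, 292.3 and 308.5 in 2N and 267.5, 302.5 and 312.4 in Ts1Cje, and the difference was 0.05 (SE 0.0659, interval -0.09 to 0.18). The platform annotation does not assign it to one of these genes, and which transcript it reads was not examined.

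**Figure D2:**
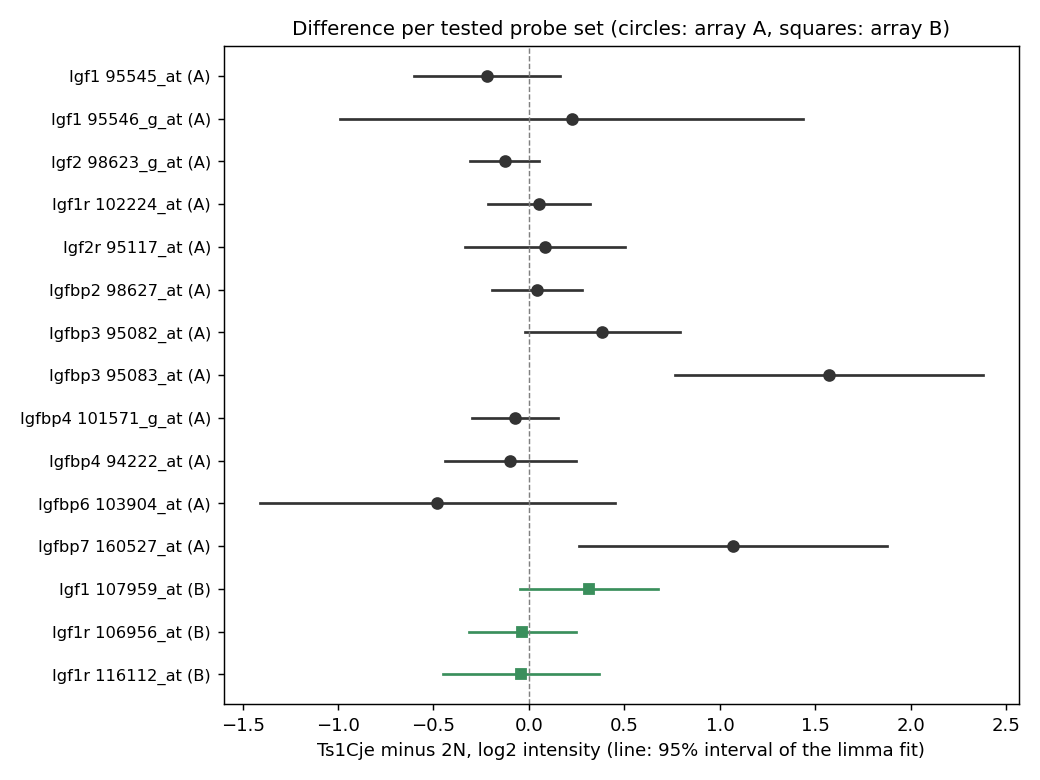
Difference between Ts1Cje and 2N (log2 intensity) of each of the 15 tested probe sets, with its 95% interval from the limma fit (circles, array A; squares, array B). The intervals of Igfbp3 95083_at (0.77 to 2.38) and Igfbp7 (0.26 to 1.87) lie above 0 before adjustment for the number of probe sets, and the other 13 hold 0.

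**Figure D3:**
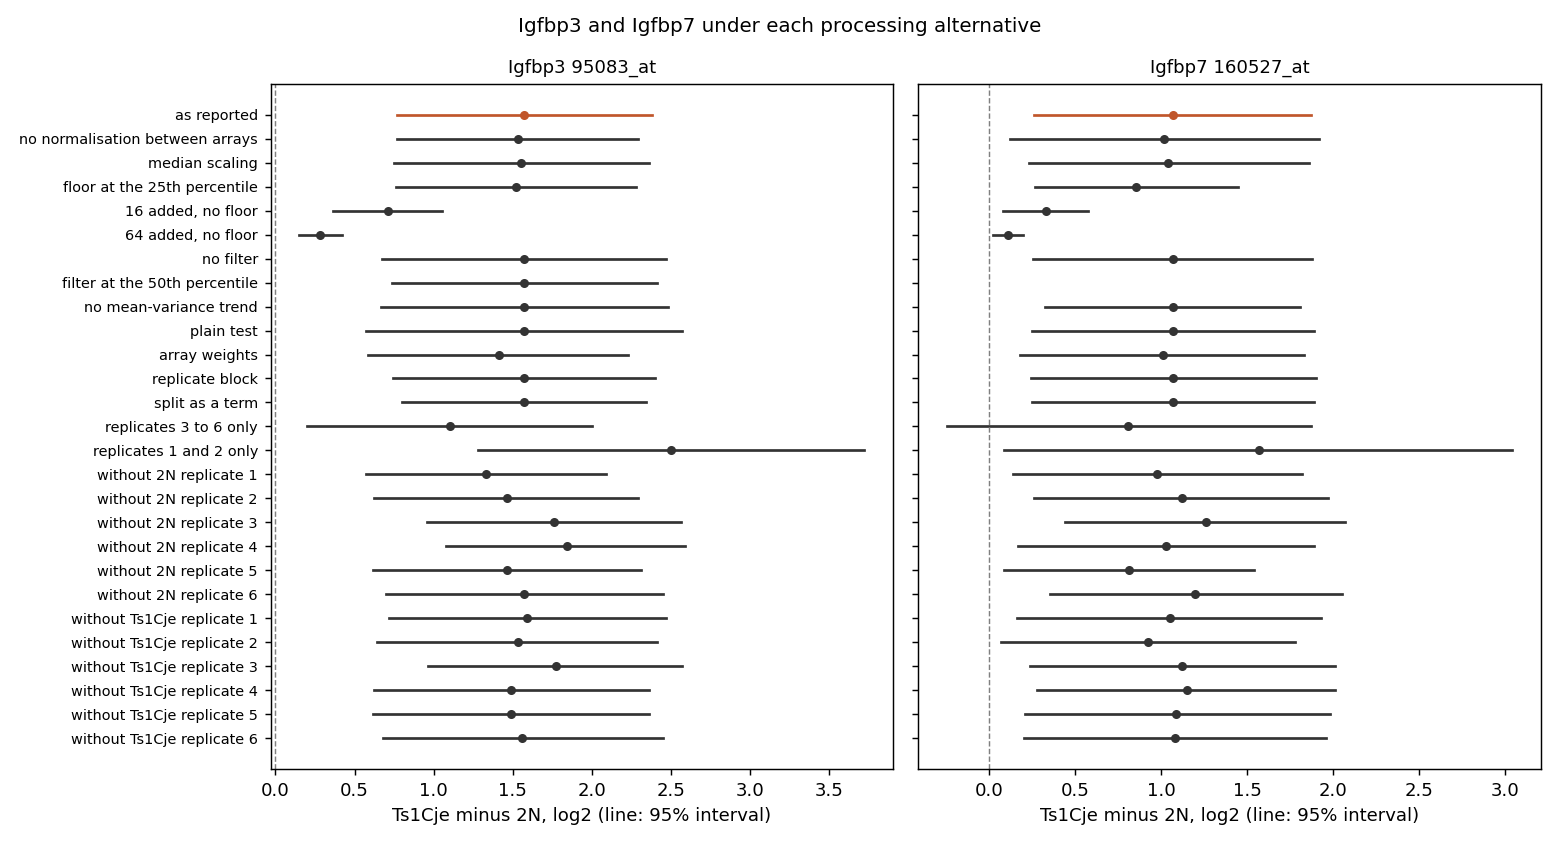
Difference between Ts1Cje and 2N (log2 intensity) with its 95% interval for Igfbp3 95083_at and Igfbp7 as reported and under each processing alternative. The points stay above 0 throughout. They lie lowest with 64 added to each value (0.28 and 0.11) and highest with replicates 1 and 2 only (2.5 and 1.57). The interval of Igfbp7 with replicates 3 to 6 only (-0.24 to 1.87) holds 0. Igfbp7, below the 50th percentile filter, has no value there.

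A larger contrast than genotype was seen between replicates 1 and 2 and replicates 3 to 6 for some members. For Igf1 on array A (95545_at) the 4 samples numbered 1 and 2 ran from 41.4 to 54.1 and the 8 samples numbered 3 to 6 from 60.1 to 91.2. These sets did not overlap, and the mean log2 difference was -0.71 in 2N and -0.58 in Ts1Cje. For Igf1 on array B (107959_at) the ranges of 21.9 to 34.4 and 31.1 to 50.3 overlapped, with differences of -0.65 and -0.31. Igfbp2 ran from 257 to 284 in replicates 1 and 2 and from 293 to 389 in replicates 3 to 6, and the difference was -0.36 in both genotypes. Igf1r went the other way on array B, where 106956_at ran from 67.7 to 85.4 and from 49.99 to 67.1 (0.42 in 2N and 0.39 in Ts1Cje). Its array A probe set overlapped between these sets (0.36 in 2N and -0.20 in Ts1Cje).

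In all, 2 of the 12 array A members and 1 of the 3 array B members did not overlap between these sets of replicates, beside 2.92% and 2.94% of all tested probe sets. The split itself was found in these data, so no test was made on it. Oligodendrocyte markers on array A, 5 of 11 listed genes tested, were lower by a mean log2 difference of -0.32 in replicates 1 and 2 and overlapped between the sets (4.35 to 4.95 and 4.77 to 5.18), while neuronal markers differed by -0.07. On array B, where 3 of the 11 were tested, oligodendrocyte markers differed by 0.03 between the same sets. Their part in the Igf1 and Igfbp2 values was not tested. The same replicate numbers occur in both genotypes, so the split is balanced between 2N and Ts1Cje.

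**Figure D4:**
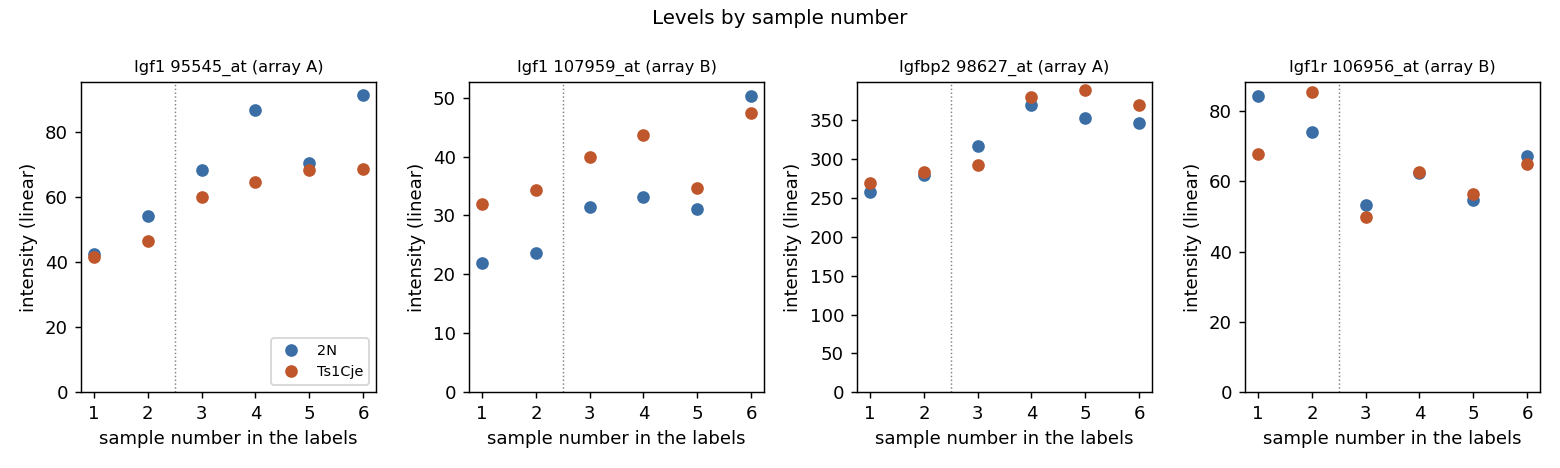
Intensity (linear scale) against the sample number in the labels for Igf1 on array A and array B, Igfbp2 on array A and Igf1r on array B, with 2N and Ts1Cje samples as separate points. The dotted line parts numbers 1 and 2 from 3 to 6: Igf1 (array A) and Igfbp2 lie lower on its left (at most 54.1 and 284) and Igf1r (array B) higher (at least 67.7).

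The other genes of the pathway were taken from 3 lists. A gene tested on both arrays was counted by its array A probe set. Of 83 listed genes 58 were tested, and 0 were called higher and 0 lower by limma, with 2 at an unadjusted p under 0.05, both higher in Ts1Cje. The differences were above 0 for 27 and below 0 for 31, and the median was -0.02. The 2 genes, named here after their values were seen, were Grb14, an adaptor that dampens insulin receptor signalling, at 0.32 on array B (SE 0.150), and Stc2, a secreted inhibitor of PAPP-A, at 1.22 on array A (SE 0.407). Both had limma adjusted p-values no lower than 0.99. The array B probe set of Stc2 differed by -0.45 (SE 0.605).

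Among 32 tested genes of the intracellular cascade 13 differences were above 0 and 19 below. By the probe set counted, the brightest by percentile were the kinase genes Gsk3a (0.04, SE 0.0646) and Akt1 (0.00330, SE 0.0896), the translation repressor gene Eif4ebp2 (-0.03, SE 0.0940) and, on array B, the phosphatase gene Ptpn11 (-0.17, SE 0.109). Pik3r1, a regulatory subunit gene of PI3 kinase, was counted by its array A probe set at the 58.2nd percentile (0.05, SE 0.149), while its array B probe set, at the 97.2nd percentile, differed by -0.04 (SE 0.0760). The receptor substrate gene Irs1 differed by 0.12 (SE 0.107) and the insulin receptor gene Insr by 0.12 (SE 0.109), both on array B and both named here after their values were seen. Of 16 tested extracellular partners and growth hormone axis genes 9 were above 0. The brightest were Lrp1, an endocytic receptor (0.08, SE 0.0600), the lysosomal protease gene Ctsd (0.13, SE 0.114), Itgb1 (0.05, SE 0.120) and the plasminogen activator gene Plat (0.14, SE 0.190). Of 10 tested RNA-binding and imprinted-network genes 5 were above 0. The brightest there were the imprinted genes Ndn (0.10, SE 0.0573), Peg3 (-0.03, SE 0.120), Cdkn1c (0.00638, SE 0.158) and Dlk1 (0.01, SE 0.117).

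Genes whose levels followed a member over the samples were listed by Pearson's r of log2 values, each centred on its genotype mean, over the 12 samples of a table. The 5 highest of 4857 candidate genes are given as a description, since the samples share their arrays, normalisation and replicate split. Igf2 was followed by Sf3b3 (r = 0.907), Ndufb5 (0.888), Rab6a (0.887), AU040320 (0.881) and Bgn (0.877), and within replicates 3 to 6 these values were 0.779, 0.819, 0.704, 0.715 and 0.742. Igfbp2 was followed by Gtf2i (r = 0.946), Zfp385a (0.921), Pcgf2 (0.917), Atp13a2 (0.914) and Tmem150a (0.911), and within replicates 3 to 6 these values were 0.866, 0.852, 0.806, 0.749 and 0.848. Among members above the median brightness the widest spread on array A was that of Igfbp3 95083_at, with an SD of 0.778 on the log2 scale, followed by Dgcr2 (r = 0.864), Chad (0.830), Ager (0.812), Slc19a1 (0.801) and Rtn2 (0.781). On array B it was that of Igf1r 116112_at, with an SD of 0.343, and the nearest of 4519 candidates were Kctd1 (r = 0.896), Dusp28 (0.883), Dnajc16 (0.868), Kmt2e (0.859) and Srgap1 (0.858). No family member was among these 20 genes.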

How the data were processed

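Both deposited tables hold linear intensities, a value for each probe set in each sample. The software and scaling the authors used are not given in the sources used here. Medians of the deposited arrays ran from 11.2 to 21.7 (array A) and 7.9 to 13.8 (array B). After 66 control probe sets were left out of each table, the tables were quantile normalised apart, values under the 10th percentile (1.47 and 1.13) were raised to that level, and values were put on the log2 scale. Probe sets whose mean lay under the 25th percentile were left out, and the remaining 9316 and 9308 probe sets were tested with limma 3.58.1 in R 4.3.3 (lmFit, eBayes with a mean-variance trend, no other term, Benjamini-Hochberg within a table). Names came from the platform annotation. Every member probe set was described, with the 4 brightest genes of each pathway list (by the array A probe set for genes tested on both arrays) and any called. The fit was run on simulated data with independent noise in each value. These data held no replicate split, so the run cannot tell how the fit behaves with that split. The labels do not say that a number is shared between the genotypes, so numbers were not taken as pairs. Same-numbered samples of the 2 genotypes correlated by 0.013 to 0.11 in their deviations, all above 0. Among the 6 samples of the other genotype, 7 (array A) and 6 (array B) of 12 samples correlated best with their own number. What same-numbered samples share was not tested. Members and lists were chosen with earlier results of these data known. Alternatives changed normalisation, floor, offset, filter, test, weights, block and samples.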

Additional observations from a re-analysis of the deposited data

Results flagged for a closer look

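In 30 sets of 6 samples (15 tested probe sets in each genotype) 1 sample stood far from the others of its group, where chance gives about 1 in 20. It was Ts1Cje replicate 3 for Igfbp3 95083_at on array A, at 12.67, with the nearest other Ts1Cje sample at 23.75. Without it the log2 difference was 1.77 (limma adjusted p = 0.19).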

How the results depend on the processing

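The numbers of members called and of pathway genes called were 0 in each alternative that was run. Over all probe sets 9 (array A) and 6 (array B) were called. Without normalisation between arrays, and with replicates 1 and 2 only, 0 were called on either array. Without the mean-variance trend the numbers were 2 and 0, with a plain test 9 and 0, with median scaling 4 and 3, without the filter 8 and 2, and with replicates 3 to 6 only 6 and 1. Leaving out 1 sample in turn they ran from 6 to 11 and from 1 to 6. Igf1 95546_g_at, Igfbp6 and Igfbp7 have no value with the 50th percentile filter. Of 387 differences of single members under alternatives, 379 moved by less than the SD between samples and 8 by more. The sign changed in 27 of them, in 8 of the 15 probe sets (Igf1 95546_g_at, all 3 of Igf1r, Igf2r, Igfbp2, Igfbp4 94222_at and Igfbp6). With replicates 1 and 2 only, the median member difference was -0.17 (array A) and 0.27 (array B). On array B that median was over 4 members and not 3, since a further one passed the filter. The 3 members of the main fit were at 0.54 (Igf1 107959_at), -0.06 (Igf1r 106956_at) and 0.00144 (Igf1r 116112_at). Leaving out 1 sample in turn the median ran from -0.03 to 0.10 and from -0.06 to 0.11. Some of these array B fits, among them the one that gave 0.11, also held 4 members. Igfbp3 95083_at ran from 1.33 to 1.84 in the fits that left out 1 sample, with its smallest limma adjusted p, 0.0759, without 2N replicate 4. Over all its alternatives the adjusted p ran from there to 0.974. With the replicate block it was 1.57 (adjusted p = 0.482), and the block changed no call. Under the block the 95% interval of Igf1 on array B (107959_at) was 0.06 to 0.57, with a limma adjusted p of 0.894. That of Igf1 on array A (95545_at) was -0.44 to 0.000112, with a limma adjusted p of 0.9, so the arrays differed in sign there too. On array A 7 and on array B 6 of 12 samples correlated best with their own number, among the 6 samples of the other genotype. The cause of these shifts was not tested. Dim probe sets, with SEs up to 0.576, limit what the arrays can resolve.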
